A study of Mus musculus with 46 samples.

Results

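The genes described here are 36 genes of the autophagy machinery, listed by their known role, and followed in messenger RNA drawn from AgRP and POMC neurons of the mouse arcuate nucleus (ARC). They were listed by name, with earlier results of these data known. Of the 36, 34 had a row among the 31854 features with counts, and all 34 were expressed above the low-count filter in both cell types. Atg4a and Atg4d were not analysed here. The 34 were 5 genes of the initiation kinase complex, 6 of the class III PI3-kinase complex, 5 for membrane supply and PI3P binding, 8 of the ATG12 and ATG8 conjugation machinery, 5 of the ATG8 family, 4 cargo receptors and the transcription factor Tfeb.

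Autophagy encloses cytoplasm in a double membrane and delivers it to the lysosome, where the contents are broken down and reused. A kinase complex around ULK1 starts the process, a lipid kinase complex around Beclin 1 marks the membrane with PI3P, and 2 linked conjugation reactions attach ATG8-family proteins (LC3 and GABARAP) to the growing membrane, where cargo receptors bind them. Nutrient shortage is the classic trigger and acts first through phosphorylation of these proteins, with slower control through transcription factors such as TFEB and FOXO. AgRP neurons drive feeding and POMC neurons restrain it. Leptin, a hormone of fat tissue, inhibits the former and activates the latter. None of the measurements below is of autophagic flux or of protein.

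Ribosome-bound RNA was captured through a GFP-tagged ribosomal protein, L10a, expressed with the NuTRAP reporter only where Cre recombinase is active (translating ribosome affinity purification, TRAP). AgRP-IRES-Cre and POMC-IRES-Cre directed the reporter, so that each library holds RNA of cells with Cre activity plus whatever unbound RNA was carried through. The AgRP mice were males of 6 to 11 weeks on chow, of C57BL/6J background, and were fed ad libitum and given PBS as vehicle (3 libraries), fasted for 18 to 20 h and given vehicle (4 libraries), or fasted likewise and given leptin at 5 mg/kg intraperitoneally (4 libraries), with tissue taken 3 h after the injection. POMC libraries labelled with the same 3 states numbered 2 each, and the age of the POMC mice, the dose and the times are not described apart from those of the AgRP mice. Each RNA library pooled 4 ARCs, so a replicate is a pool of animals and not an animal. Open chromatin was measured by ATAC-seq in GFP-sorted AgRP nuclei (2 libraries per state), and binding of IRF3, the transcription factor the study centres on, by CUT&RUN in AgRP neurons that carry a constitutively active form of it (IRF3-2D, 1 sample).

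Total counts ranged from 25581041 to 54511107 per RNA library and from 8263234 to 17190963 per ATAC library. The markers matched the labels, with the summed level of 7 AgRP-neuron markers at 1880 to 6719 CPM (counts scaled to a common library total) in AgRP libraries against 277 to 412 CPM in POMC libraries, and that of 4 POMC-neuron markers at 126 to 183 against 1677 to 3085 CPM. The 3 AgRP libraries numbered 4 and the 3 POMC libraries numbered 2 stood apart. In these the astrocyte gene Slc1a2 took 1.93% to 2.42% of all counts, against 0.240% to 0.641% elsewhere, and 9 astrocyte markers summed to 21114 to 28135 CPM against 2914 to 6941 CPM. Slc1a2 is 1 of these 9 and makes up most of the sum, so the sum is not a separate measure. None of the 9 was at 0 in every library. The AgRP-neuron markers, which include Agrp itself, summed to 1880 to 2635 CPM in fed, 3200 to 6719 CPM in fasted and 2381 to 6617 CPM in leptin-treated AgRP libraries, and the part of this in the results below was not tested. The set-apart libraries occur in every state, and values without them are given where they bear on a result.

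Within each neuron type the machinery was expressed at levels that spanned more than 2 orders of magnitude. Per kilobase of exon, the highest was Sqstm1, encoding the cargo receptor p62, at 313 ± 52.3 CPM per kb (SD, n = 11) in AgRP libraries and 295 CPM per kb on average in the 6 POMC libraries. The next was Gabarapl1, an ATG8-family gene, at 224 ± 31.6 CPM per kb, followed by Map1lc3a (LC3A) at 125 ± 26.6, Gabarapl2 at 96.8 ± 18.6, Gabarap at 91.9 ± 11.9 and Map1lc3b (LC3B) at 62.7 ± 6.10 CPM per kb. Gabarapl2 and Gabarap differed by less than their spread, and so did Map1lc3b and the next gene, Wipi2 (59.1 ± 7.73 CPM per kb), while Sqstm1, Gabarapl1 and Map1lc3a were separated by more than the spread of either neighbour. At the other end stood Uvrag at 4.72 ± 0.602, Atg4c at 4.14 and Tfeb at 0.794 ± 0.124 CPM per kb. The first 8 and the last 3 genes came in the same order in POMC neurons. This order rests on the gene lengths deposited with the counts. For Map1lc3b that length was 1712 bases, against 5182 exon bases in the GENCODE M21 annotation, and for Uvrag 9268 against 5157. The median over the 34 genes was 15.7 CPM per kb against 7.51 CPM per kb for all genes tested in AgRP neurons, and 24 of the 34 lay above that value.

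**Figure D1:**
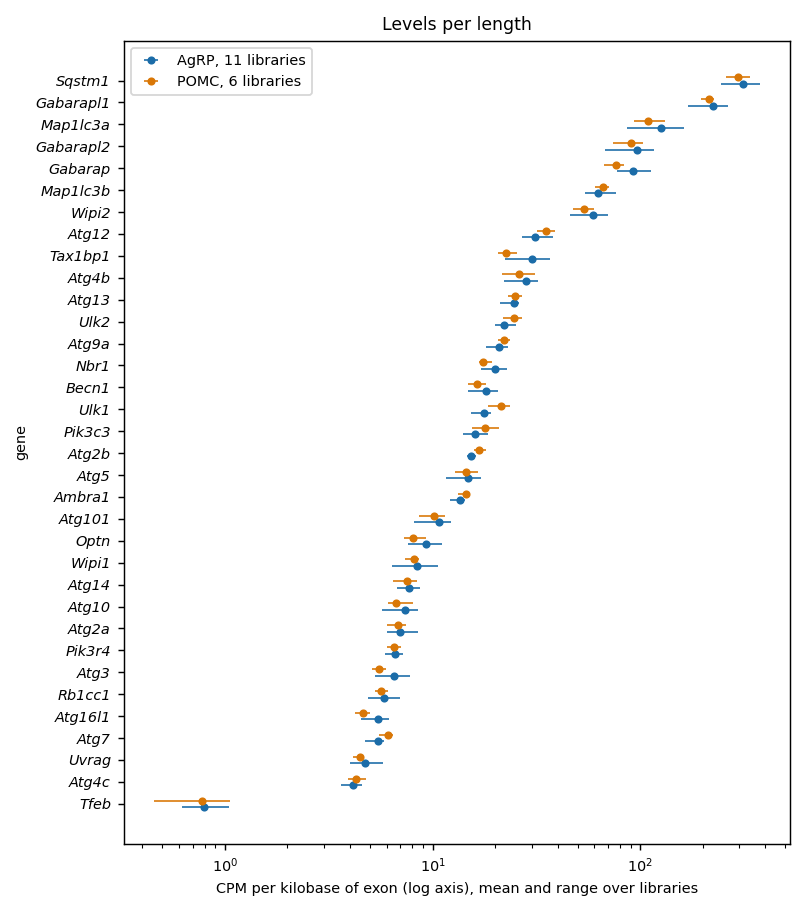
Level of each of the 34 genes in CPM per kilobase of exon, on a logarithmic axis. Points are means and lines run from the lowest to the highest library, for 11 AgRP and 6 POMC libraries. Sqstm1 and Gabarapl1 are the highest in both neuron types, Tfeb is the lowest at 0.794 in AgRP neurons, and the ranges of the cell types overlap for most genes.

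The first question was whether fasting alters these genes in AgRP neurons. No gene of the machinery reached the fold taken as a change, and Uvrag and Wipi2, 1.32-fold and 1.29-fold higher in the fasted than in the fed state, were the only members with an adjusted p under 0.05. A gene was called changed when its adjusted p was under 0.05 and its log2 change exceeded 0.5. By that rule 0 of the 34 changed, where 3.89% of all 13401 genes tested did. DESeq2 also gave 0. Without a minimum fold 2 passed, against 5.38% of all genes, and the same 2 were those with an unadjusted p under 0.05, both higher. Over all 13401 genes, 1656 were higher and 928 lower at that unadjusted p. Of the 34, 18 had a positive and 16 a negative log2 change, and the median was 0.02, equal to the 0.02 of all genes. The 95% interval lay within 0.5 log2 units of no change for 27 of the 34 and within 1 log2 unit for all 34.

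Uvrag encodes a partner of Beclin 1 in the lipid kinase complex that acts in autophagosome and endosome maturation. It lies at chr7:98885021-99141141 on the minus strand (GRCm38). Its level was 37.7, 38.7 and 36.9 CPM in the fed AgRP libraries and 50.3, 50.2, 53.3 and 44.0 CPM in the fasted libraries. It was 41.0, 46.5, 42.2 and 40.7 CPM in the libraries of leptin-treated mice. Every fasted value exceeded every fed value, and the values after leptin lay between the group means, with only the second overlapping the fasted range. The log2 difference between fasted and fed was 0.40 (SE 0.08, 95% interval 0.23 to 0.56, adjusted p = 0.0127), a 1.32-fold higher level that stayed under the minimum fold. The adjusted p passed 0.05 without the libraries numbered 4 as well (log2 0.41, adjusted p = 0.0193), but not when fed library 1 (0.0627), fed library 4 (0.0752) or fasted library 3 (0.0633) was left out, nor with scaling by library size alone (0.278).

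Wipi2 encodes a PI3P-binding protein that brings the ATG16L1 complex to the forming membrane, and lies at chr5:142627698-142670588 on the plus strand. It was read at 189.9, 211 and 179.9 CPM in fed AgRP libraries and at 256, 235, 271 and 231 CPM in fasted libraries. After leptin it stood at 234, 244, 274 and 218 CPM. Fed and fasted values did not overlap, and the leptin values lay above all fed values. The log2 difference between fasted and fed was 0.37 (SE 0.09, interval 0.16 to 0.58, adjusted p = 0.0484), that is 1.29-fold. This call was fragile, and without the libraries numbered 4 the difference was 0.33 with an adjusted p of 0.0817.

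Libraries of the same number resembled each other across states, which the deposited data show but the labels do not explain. Over the 34 genes in AgRP neurons a median of 63.9% of the variance went with the library number and 16.2% with the state, and 26 of 34 varied more with the number. With the replicate number as a block, 3 of the 34 passed an adjusted p of 0.05 without a minimum fold, against 24.5% of all genes, and 0 passed with it, against 6.94%. These were Uvrag (log2 0.37, adjusted p = 0.00146), Wipi2 (0.38, 0.000362) and Map1lc3a (0.25, 0.0186). Between libraries of the same number the log2 ratio of fasted to fed was 0.42, 0.46 and 0.25 for Uvrag and 0.43, 0.36 and 0.36 for Wipi2, so both were higher in 3 of 3 pairs.

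**Figure D2:**
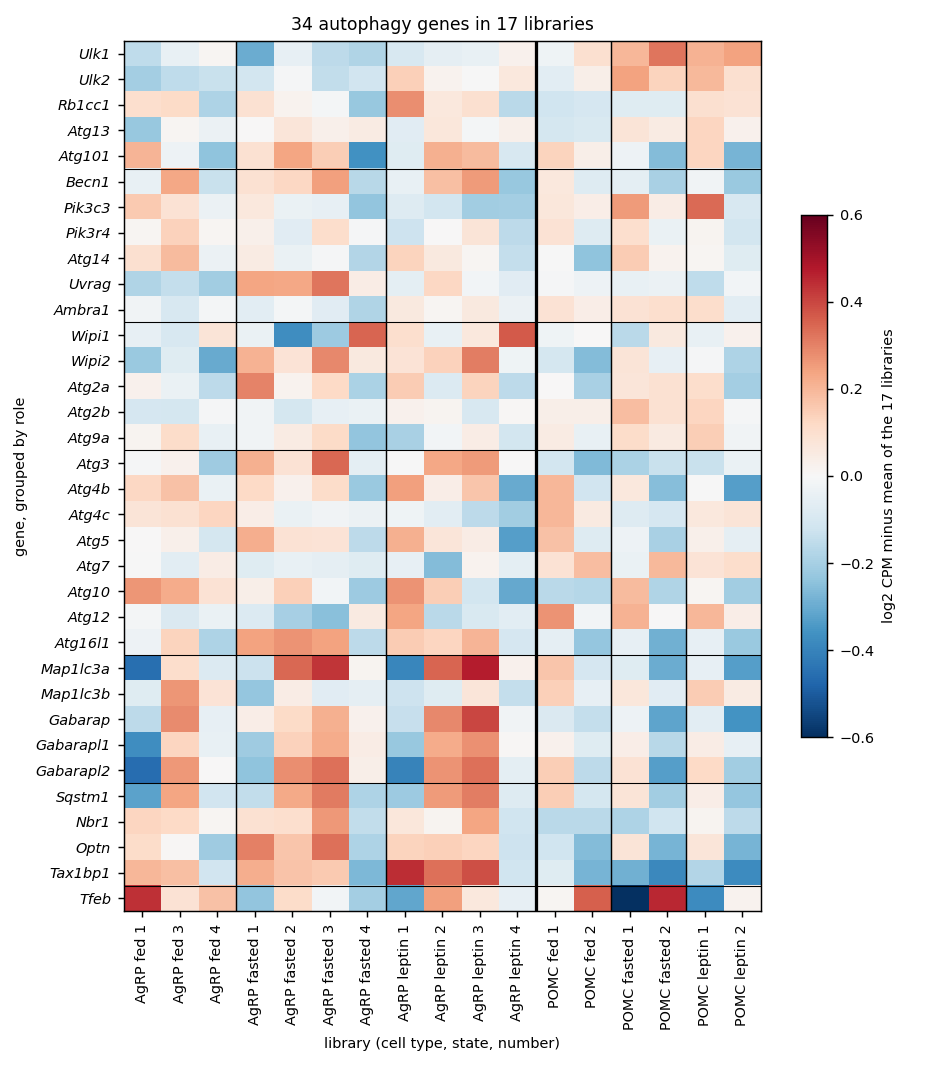
Level of each of the 34 genes in each of the 17 RNA libraries, as log2 CPM minus the gene's mean over all 17. Differences between the neuron types are therefore part of the colours. Genes are ordered by role, and the colour scale runs from −0.6 to 0.6. Columns with the same library number resemble each other across states, while Uvrag and Wipi2 are higher in the 4 fasted than in the 3 fed AgRP libraries.

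Among the initiation kinase genes, the values stayed close to no change. Ulk1 and Ulk2 encode the related kinases, Rb1cc1 the scaffold FIP200, and Atg13 and Atg101 their regulatory partners. Their log2 differences between fasted and fed ran from −0.10 for Ulk1 to 0.13 for Atg13. Ulk1 was read at 88.3, 94.96 and 98.7 CPM in fed and at 79.8, 94.9, 87.9 and 86.6 CPM in fasted AgRP libraries, and these groups overlapped. In the lipid kinase complex, Becn1 (Beclin 1), Pik3c3 (the catalytic subunit VPS34), Pik3r4 (its regulatory subunit), Atg14 (the subunit that directs the complex to autophagosome formation) and Ambra1 (a regulator of Beclin 1) lay between −0.13 and 0.06, so that Uvrag stood apart from the other 5. Of the Becn1 exon bases 29.6% overlap Cntd1, and reads of the 2 genes cannot be told apart without strand. Among the membrane genes other than Wipi2, the lipid transfer genes Atg2a and Atg2b, the scramblase gene Atg9a and Wipi1 ran from −0.04 to 0.14. Of the Atg9a exon bases 42.6% overlap other genes, mostly the predicted gene Gm29253.

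The conjugation machinery comprises Atg7, the shared activating enzyme, Atg3 and Atg10, the conjugating enzymes, Atg5, Atg12 and Atg16l1, which form the complex that attaches ATG8 proteins to lipid, and the proteases Atg4b and Atg4c. Differences between fasted and fed ran from −0.19 for Atg10 to 0.22 for Atg3 (interval −0.02 to 0.46, adjusted p = 0.296), and 3 of 8 were positive.

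The ATG8 family gave no call, and its members had point estimates of both signs. Map1lc3a was read at 89.8, 132 and 116 CPM in fed, 113, 156, 165 and 124 CPM in fasted, and 93.7, 157, 170.4 and 125 CPM in leptin-treated AgRP libraries. Map1lc3b was read at 103, 131 and 115 CPM in fed, 92.6, 112, 104 and 105 CPM in fasted, and 100.0, 104, 115 and 98.7 CPM in leptin-treated libraries. The fed and fasted ranges overlapped for each gene, but the point estimates had opposite signs, at 0.32 for Map1lc3a (SE 0.22, interval −0.16 to 0.79, adjusted p = 0.480) and −0.16 for Map1lc3b (SE 0.10, interval −0.39 to 0.07, adjusted p = 0.448). In same-numbered pairs Map1lc3a was higher in the fasted library in 3 of 3, by 0.33, 0.32 and 0.10 on the log2 scale.

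Gabarap was read at 86.2, 117 and 92.9 CPM in fed and at 98.8, 104, 111 and 97.8 CPM in fasted libraries, with 87.3, 117, 127 and 94.8 CPM after leptin. Gabarapl1 was read at 437, 619 and 547 CPM in fed, at 488, 622, 659.5 and 583 CPM in fasted, and at 482, 659, 683 and 567 CPM in leptin-treated libraries. Gabarapl2 was read at 66.3, 109 and 91.2 CPM in fed, 77.0, 111, 114 and 93.4 CPM in fasted, and 69.0, 110.0, 115 and 87.4 CPM in leptin-treated libraries. The ranges of the 3 states overlapped for each of these genes, and in each state library 1 was the lowest for Gabarapl1 and Gabarapl2. As shares of the summed ATG8 level per kilobase, Map1lc3a made up 18.7% to 19.6% in fed and 20.2% to 22.9% in fasted libraries, and Map1lc3b 11.6% to 13.1% in fed and 8.78% to 10.4% in fasted libraries. Within each gene these ranges did not touch, but those after leptin (18.6% to 22.5% and 8.87% to 12.1%) overlapped both. In POMC neurons the Map1lc3a share was lower in fasted (19.1% to 19.3%) than in fed libraries (20.3% to 21.7%). The shares are a description, chosen after their values were seen, and were not tested.

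Among the cargo receptors, Sqstm1 differed by 0.12 (SE 0.19), Nbr1 by 0.01, Optn (optineurin) by 0.20 and Tax1bp1 by −0.0047 log2 units between fasted and fed, none with an adjusted p under 0.05. Of the Sqstm1 exon bases 20.5% overlap Mrnip on the other strand. Tfeb, a master regulator of lysosome and autophagy genes, was read at 3.52, 2.76 and 2.94 CPM in fed and 2.20, 2.81, 2.57 and 2.25 CPM in fasted libraries. Its difference of −0.31 (interval −0.67 to 0.06, adjusted p = 0.352) was the lowest of the 34, and 1 fasted value lay within the fed range.

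**Figure D3:**
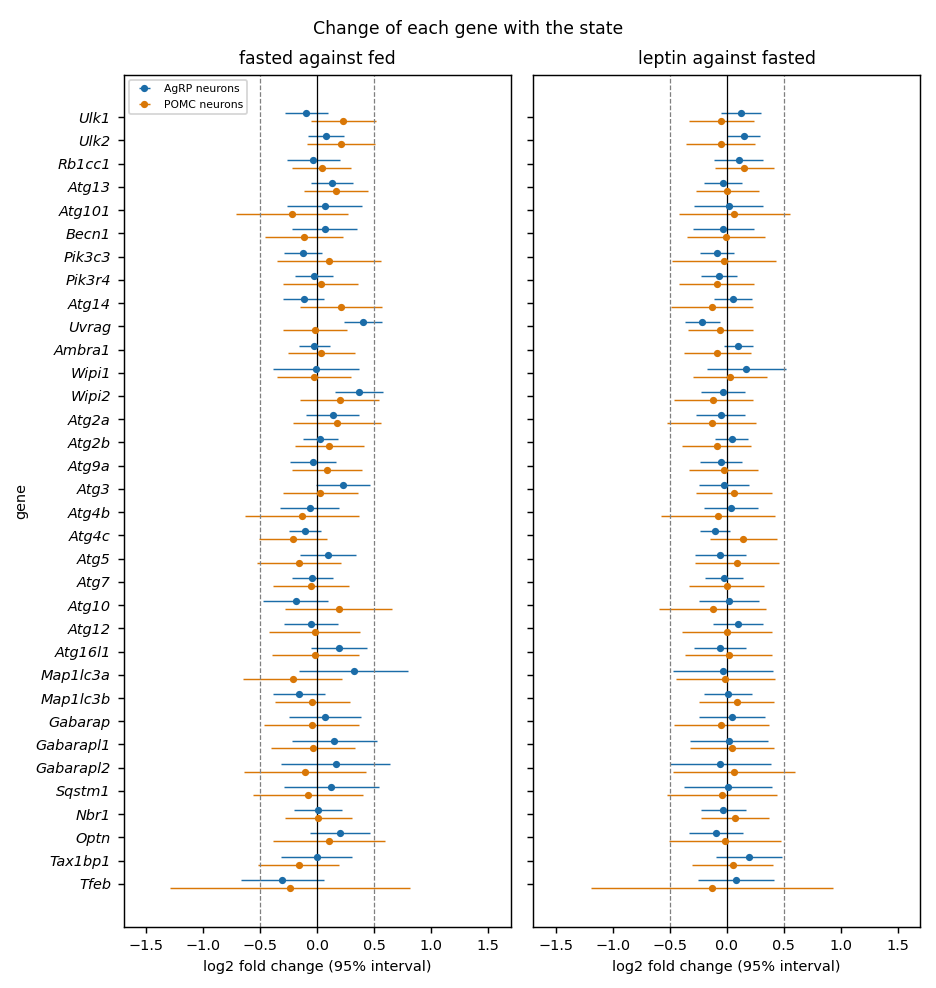
Log2 difference of each of the 34 genes between fasted and fed (left) and between leptin-treated and fasted libraries (right), for AgRP and POMC neurons. Points are edgeR estimates, lines are 95% intervals, and dashed lines mark the minimum log2 change of 0.5. In AgRP neurons Uvrag (0.40) and Wipi2 (0.37) are the highest under fasting, Tfeb (−0.31) is the lowest, and the intervals for POMC neurons are wider.

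The second question was what leptin does to these genes in fasted AgRP neurons. Because this comparison uses the same fasted libraries as the previous comparison, opposite signs in the 2 are not independent. No member met the calling rule after leptin. Of the 34, 0 were called, against 1.83% of all genes, and 0 passed without a minimum fold, against 2.30%, with 0 by DESeq2. At an unadjusted p under 0.05, Ulk2 was higher and Uvrag lower, while of all 13401 genes 634 were higher and 590 lower. The signs were 17 positive and 17 negative, the median was −0.01 as for all genes, and the interval lay within 0.5 log2 units of no change for 33 of 34.

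Uvrag differed by −0.22 between leptin and fasted (SE 0.07, interval −0.37 to −0.06, adjusted p = 0.221), and with the replicate block the difference was −0.22 (adjusted p = 0.0351). Ulk2 was read at 123, 132, 120.1 and 123 CPM in fasted and 147, 135, 133 and 139 CPM in leptin-treated libraries, ranges that did not overlap, for a difference of 0.15 (SE 0.07, interval 0.01 to 0.29, adjusted p = 0.505). Fed libraries held 116, 119.8 and 121 CPM of Ulk2. Tax1bp1, a receptor for ubiquitin-tagged cargo, was read at 168, 163, 161 and 119.6 CPM in fasted and 196, 182, 189 and 133 CPM in leptin-treated libraries, where library 4 was the lowest in each state. Its difference was 0.20 (SE 0.13, interval −0.09 to 0.48, adjusted p = 0.909) and with the block 0.19 (adjusted p = 0.0298). With the block 2 members, Uvrag and Tax1bp1, passed without a minimum fold, against 7.83% of all genes, and 0 with it, against 2.91%. Of the ATG8 family, the differences after leptin ran from −0.06 for Gabarapl2 to 0.05 for Gabarap.

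Against the fed state, the fasted and leptin-treated mice had 0 of 34 called, where 5.48% of all genes were, and 0 at an adjusted p under 0.05 with no minimum fold (8.89% of all genes), although DESeq2 gave 3 by the latter criterion. At an unadjusted p under 0.05, 3 were higher and 2 lower, while of all 13401 genes 1855 were higher and 1239 lower. Wipi2 came closest, at 0.33 (SE 0.09, interval 0.13 to 0.54, adjusted p = 0.0518). The block gave 6 members without a minimum fold, against 30.0% of all genes, and 0 with it, against 8.57%. Those higher after leptin were Wipi2 (0.34, adjusted p = 0.000595), Ulk2 (0.22, 0.0158), Map1lc3a (0.20, 0.0418) and Tax1bp1 (0.16, 0.0481), and those lower were Pik3c3 (−0.22, 0.0141) and Atg4c (−0.21, 0.0276). Atg4c was read at 35.7, 36.1 and 37.0 CPM in fed and 33.2, 32.3, 30.4 and 29.2 CPM in leptin-treated libraries, and Pik3c3 at 58.6, 55.9 and 51.4 CPM against 49.9, 48.7, 45.5 and 45.7 CPM. For these genes the fed and leptin-treated ranges did not overlap.

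In POMC neurons no gene of the machinery was called in any comparison of states, but neither was any of the 13412 genes tested (0% in each by edgeR), so this design of 2 against 2 could not separate the members from the rest. Of the 34, 0 had an unadjusted p under 0.05 in each of the 3 comparisons, and DESeq2 and the block also gave 0. Over all genes, 135 were higher and 147 lower at that unadjusted p in fasted against fed. The numbers were 115 and 36 in leptin against fasted, and 155 and 127 in leptin against fed. DESeq2 called 3, 10 and 7 genes in all, and the block 3, 8 and 44 genes in all (0.0224%, 0.0596% and 0.328%), in fasted against fed, leptin against fasted and leptin against fed. Without a minimum fold the block called 0.350% of all genes in the last, and 0 members. The intervals within 0.5 log2 units of no change numbered 17, 26 and 24 of 34. Between fasted and fed, the lowest was Tfeb (−0.24, interval −1.29 to 0.81) and the highest Ulk1 (0.23, interval −0.06 to 0.51).

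Uvrag was read at 42.5 and 41.8 CPM in fed, 41.4 and 41.6 CPM in fasted, and 38.4 and 42.1 CPM in leptin-treated POMC libraries, all within the range of the AgRP libraries. Wipi2 was read at 206 and 185 CPM in fed, 234 and 214 CPM in fasted, and 221 and 195 CPM in leptin-treated POMC libraries, so fasted values exceeded fed values here too, by 0.20 (interval −0.15 to 0.54). Map1lc3a was read at 138 and 114 CPM in fed, 117 and 100.0 CPM in fasted, and 119 and 97.9 CPM in leptin-treated libraries. It was lower in the fasted library of both same-numbered pairs, by log2 values of −0.24 and −0.20, the sign opposite to that in AgRP neurons. The ATG8 family differed by −0.22 to −0.03 between fasted and fed POMC neurons.

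For the other ATG8 genes, the POMC values of the fed, fasted and leptin-treated states overlapped throughout. Map1lc3b was read at 120.1 and 105, 114 and 104, and 121 and 113 CPM. Gabarap was read at 90.4 and 87.0, 94.0 and 77.1, and 91.9 and 74.9 CPM. Gabarapl1 was read at 575 and 537, 580.4 and 504, and 583 and 546 CPM, and Gabarapl2 at 101 and 81.8, 96.7 and 72.4, and 99.0 and 78.9 CPM. In each state the library numbered 2 was the lower.

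Whether the fasting effect differs between neuron types was tested directly, although neuron type and mouse line cannot be told apart, as each type came from its own Cre line. Of the 34, 0 differed by the calling rule, against 0.164% of all 13435 genes tested in both, with 0 by DESeq2. At an unadjusted p under 0.05 the fasting effect of Uvrag was more positive in AgRP neurons, and those of Ulk1 and Atg14 more negative. Of all 13435 genes, 756 were more positive and 448 more negative at that p. Uvrag differed by 0.41 (SE 0.13, adjusted p = 0.276), Ulk1 by −0.33 (SE 0.12, adjusted p = 0.406) and Map1lc3a by 0.53 (SE 0.33, adjusted p = 0.737). With the replicate block 3 members passed an adjusted p of 0.05 without a minimum fold, against 10.2% of all genes, and 0 with it, against 6.22%. These were Uvrag (0.39, 0.0282), Ulk1 (−0.35, 0.0196) and Map1lc3a (0.46, 0.0135). For the leptin effect 0 of 34 differed, against 0.0819% of all genes, with 0 by DESeq2. The block also gave 0 (0.759% of all genes with and 0.811% without a minimum fold). Atg4c (−0.26) was the 1 member with an unadjusted p under 0.05, where 157 of all genes were more positive and 232 more negative.

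**Figure D4:**
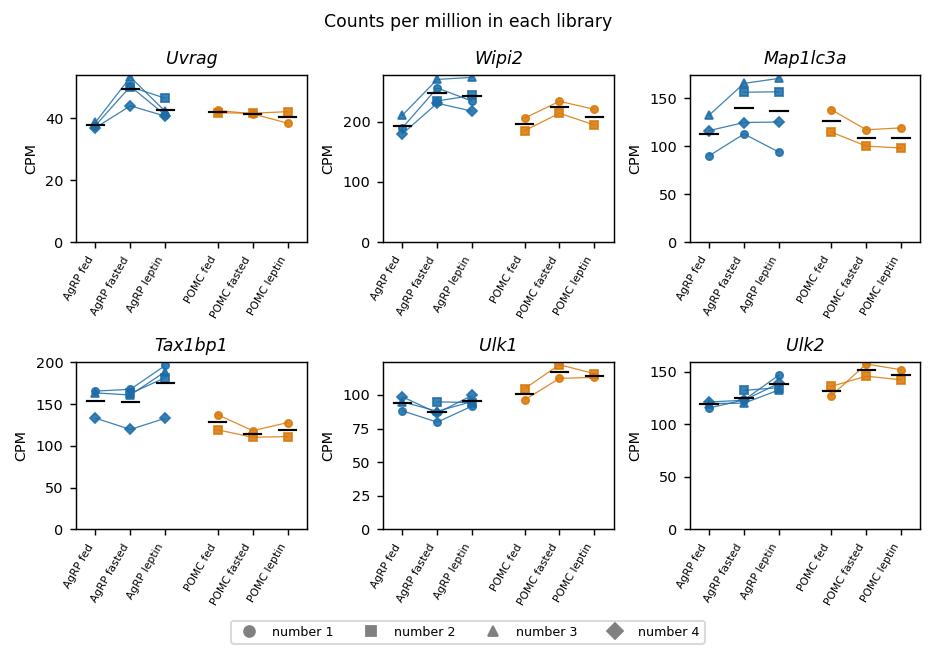
CPM of Uvrag, Wipi2, Map1lc3a, Tax1bp1, Ulk1 and Ulk2 in each RNA library by neuron type and state. Each point is 1 library, lines join libraries of the same number, and black bars are group means. Uvrag lies at 44.0 to 53.3 in fasted and 36.9 to 38.7 in fed AgRP libraries, and at 41.4 to 41.6 and 41.8 to 42.5 in POMC libraries, and Tax1bp1 is lowest in the AgRP library numbered 4 of each state.

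The next comparison set AgRP against POMC neurons, averaged over the 3 states. Here too neuron type and mouse line cannot be told apart. The machinery was expressed at similar levels in the 2 neuron types. On this average the cargo receptor Tax1bp1 was higher and the kinases Ulk1 and Ulk2 lower in AgRP neurons, by modest amounts. None of these genes had an adjusted p under 0.05 in the fed state alone. In bulk RNA, fewer cells of a type and less RNA per cell cannot be told apart. Of the 34, 0 were called, against 13.0% of all 13435 genes, and 9 had an adjusted p under 0.05 with no minimum fold, against 35.5%. DESeq2 gave 0 and 9. The median was 0.05, against −0.02 over all genes, and 33 of 34 intervals lay within 0.5 log2 units of no difference. Tax1bp1 differed by 0.41 (SE 0.10, interval 0.20 to 0.62, adjusted p = 0.00550), or 1.33-fold. Its difference was 0.27 in the fed state (adjusted p = 0.608), 0.42 in the fasted state (0.0995) and 0.55 after leptin (0.0432). The POMC libraries held 137 and 119 CPM of Tax1bp1 when fed, 118 and 110.3 when fasted and 128 and 111 after leptin, and the fed AgRP libraries held 166, 163 and 133 CPM.

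Ulk1 differed by −0.26 (SE 0.05, interval −0.37 to −0.16, adjusted p = 0.00115). It was read at 96.3 and 105, 112 and 123, and 113 and 116 CPM in fed, fasted and leptin-treated POMC libraries, and at 91.8, 94.4, 95.1 and 99.7 CPM in leptin-treated AgRP libraries. The difference was −0.10 in the fed state (adjusted p = 0.762), −0.43 in the fasted state (0.00345) and −0.27 after leptin (0.0497). The AgRP and POMC ranges of Ulk1 overlapped in the fed state and not in the others. Ulk2 differed by −0.17 (SE 0.05, adjusted p = 0.00935), with 127 and 136, 157 and 146, and 152 and 142 CPM in POMC libraries.

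The other 6 genes past an adjusted p of 0.05 were Gabarap (0.26), Atg16l1 (0.22), Atg3 (0.22) and the receptor Nbr1 (0.20), higher in AgRP neurons, and Atg7 (−0.16) and Atg2b (−0.12), lower, with adjusted p from 0.0311 to 0.0457. These calls were fragile, and of 25 alternatives 17 took away those of Gabarap, Atg16l1, Atg7 and Atg2b, 14 that of Atg3 and 11 that of Nbr1. With single libraries left out, 3 to 11 members passed. Of the 4 receptors all had positive differences. With the block 13 members passed without a minimum fold, against 49.3% of all genes, and 1, Tax1bp1 (0.52, adjusted p = 9.56e-06), passed the full rule, against 19.3%. In this comparison the block joined AgRP and POMC libraries of the same number, although they come from different mouse lines. Numbers 3 and 4 occur only in AgRP neurons, so its estimates rest on libraries numbered 1 and 2. The POMC libraries numbered 2 are set apart and the AgRP libraries numbered 2 are not. The block took away Gabarap (0.18, adjusted p = 0.114). The 9 astrocyte markers, most of whose sum is Slc1a2, summed to 2914 to 26886 CPM in AgRP and to 6027 to 28135 CPM in POMC libraries. Their part in these differences was not tested. Without the set-apart libraries the number that passed with no minimum fold was 9.

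Other genes of the pathway were taken from lists by role, chosen with earlier results of these data known. Under fasting in AgRP neurons, 0 of 11 further core machinery genes, 0 of 14 genes of autophagosome-lysosome fusion, 0 of 13 other selective autophagy receptors, 0 of 20 lysosomal hydrolases and membrane proteins and 0 of 16 subunits of the lysosomal proton pump were called, with 2, 3, 4, 5 and 2 at an unadjusted p under 0.05. Over all 13401 genes, 1656 were higher and 928 lower at that unadjusted p. Of 26 genes of mTORC1 and its nutrient sensing 2 rose by the calling rule, and of 11 transcription factors of autophagy genes 1 rose. Over all genes 3.89% were called, so these counts are close to the background in each list, and differences between lists were not tested. The list medians were 0.08, 0.06, −0.06, 0.04, 0.10, 0.06 and 0.14 in that order, against 0.02 over all genes. The replicate block, which called 6.94% of all genes, added Ctsz (0.63), Atp6v1b2 (0.52) and Foxo1 (0.56), 1 gene each of the hydrolase, pump and transcription factor lists.

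Ddit4, which encodes the mTORC1 inhibitor REDD1, was read at 18.7, 15.7 and 18.7 CPM in fed and 29.3, 34.6, 35.3 and 30.3 CPM in fasted AgRP libraries, with 21.4, 20.7, 27.4 and 25.2 CPM after leptin. It rose by 0.88 (SE 0.13, adjusted p = 0.00301), and its values after leptin lay between those of the fed and fasted groups. Fnip2, a folliculin partner, was read at 36.5, 40.9 and 42.9 CPM in fed and 57.6, 51.4, 59.2 and 61.2 CPM in fasted libraries, and rose by 0.53 (adjusted p = 0.00706). Atf4, a transcription factor of the amino acid response, was read at 46.9, 52.5 and 48.0 CPM in fed, 73.5, 76.5, 78.3 and 66.0 CPM in fasted and 71.0, 80.2, 84.2 and 61.2 CPM in leptin-treated libraries. It rose by 0.59 (adjusted p = 0.00820) in fasted and by 0.60 (adjusted p = 0.00640) in leptin-treated against fed libraries. None of the 7 lists had a gene called between leptin and fasted in AgRP neurons, where the list medians ran from −0.05 to 0.02, nor between states in POMC neurons. Against fed, leptin-treated mice also had a higher level of Ctsd, the aspartic protease cathepsin D (0.61, adjusted p = 0.0347).

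Between AgRP and POMC neurons, 9 genes of these lists were called, where 13.0% of all genes were. The lists are of 11, 14, 13, 20, 16, 26 and 11 genes, so that 9 is no more than the background gives. Foxo4 (1.93, adjusted p = 1.64e-08) and Foxo1 (1.46, adjusted p = 5.97e-06) were higher in AgRP neurons, and Foxo3 lower (−0.53, adjusted p = 0.0126). The proton pump subunits Atp6v0d1 (0.92, adjusted p = 5.98e-05) and Atp6v1b2 (0.50, adjusted p = 0.00372), the cathepsin gene Ctsl (0.68, adjusted p = 0.000533), Cd63 (0.55, adjusted p = 0.0176) and Ddit3 (0.50, adjusted p = 0.0383) were higher, and the Rag GTPase gene Rragd lower (−0.55, adjusted p = 0.00181). The core, fusion and receptor lists had 0 called, and differences between lists were not tested. For these lists as well, neuron type and mouse line cannot be told apart.

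At the chromatin level, ATAC peaks within 1 kb of a start site (36 peaks at 34 genes) were compared in AgRP nuclei. Peaks at the start sites of the machinery were mostly slightly smaller in the fasted state, as were start-site peaks of genes in general. Of 36 peaks 0 were higher and 2 lower by the calling rule, against 2.56% higher and 3.89% lower of 14790 start-site peaks and 18.1% higher and 8.88% lower of all 102237 peaks tested. DESeq2 gave 2. At an unadjusted p under 0.05, 0 were higher and 10 lower, and of all 14790 start-site peaks 547 were higher and 2672 lower. Of the 36 log2 differences 31 were negative, with a median of −0.21 against −0.22 for all start-site peaks and −0.04 for all peaks.

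The 2 were at Tfeb and Optn. The peak at Tfeb was read at 30.7 and 30.8 CPM in fed, 21.1 and 18.8 CPM in fasted and 20.9 and 19.1 CPM in leptin-treated libraries, and fell by 0.62 on the log2 scale between fed and fasted (SE 0.20, interval −1.05 to −0.20, adjusted p = 0.0278). The peak at Optn was read at 34.4 and 36.6 CPM in fed, 24.8 and 22.7 CPM in fasted and 24.3 and 30.8 CPM in leptin-treated libraries, and fell by 0.58 (SE 0.20, interval −0.99 to −0.17, adjusted p = 0.0326). In each case the fed and fasted libraries did not overlap, but with 2 libraries per state leaving out either fasted library left 0 calls. Scaled by library size, 1 remained called, at Tfeb. The start-site peak of Uvrag differed by −0.16 (interval −0.40 to 0.08).

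Peaks of 1 to 5 kb from a start site, 9 in all, held larger differences. A peak at chr7:99142315-99142596, centred 1.31 kb upstream of the Uvrag start, was read at 4.59 and 5.91 CPM in fed, 19.0 and 17.8 CPM in fasted and 11.4 and 10.6 CPM in leptin-treated libraries. It rose by 1.77 on the log2 scale under fasting (SE 0.29, interval 1.17 to 2.37, adjusted p = 0.000223). A peak at chr2:91711729-91712180, centred 1.38 kb upstream of Atg13, was read at 0.993 and 2.02 CPM in fed, 8.92 and 13.5 CPM in fasted and 11.6 and 11.9 CPM in leptin-treated libraries, and rose by 2.78 (SE 0.42, interval 1.90 to 3.65, adjusted p = 0.000128). The adjusted p stayed under 0.05 in all 10 alternatives for each, with differences of 1.61 to 1.99 and 2.45 to 3.48. Peaks that rose under fasting made up 18.1% of all peaks. After leptin the Uvrag peak differed from the fasted level by −0.75 (adjusted p = 0.100, under 0.05 in 1 of 10 alternatives, at 0.0470) and the Atg13 peak by 0.06 (adjusted p = 0.956). The Uvrag peak is intergenic in GENCODE M21, and the start nearest to its centre, at 0.863 kb, is that of the predicted gene Gm45185. The Atg13 peak overlaps an exon of the neighbouring gene Harbi1, whose start lies 0.241 kb from its centre, so its assignment to Atg13 rests on the 5 kb window alone. Which genes these peaks act on was not tested.

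**Figure D5:**
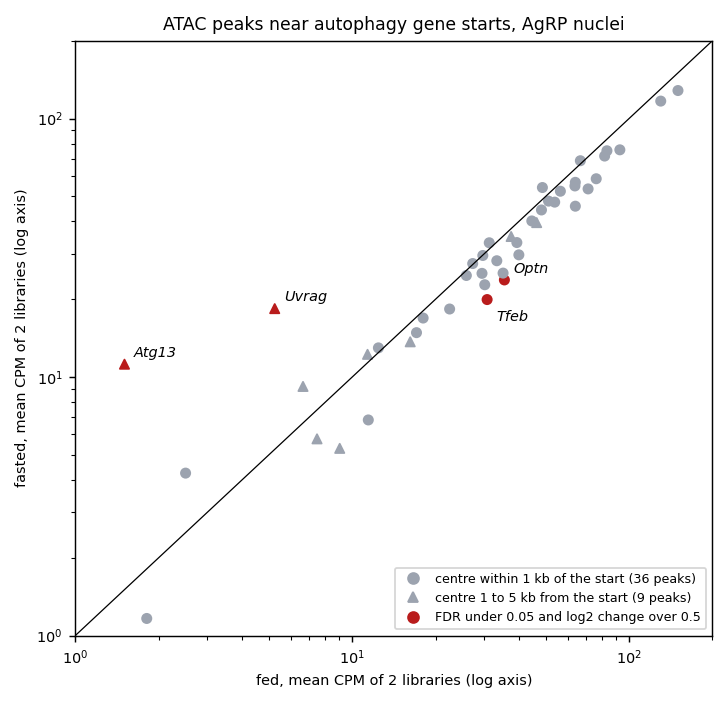
Mean ATAC CPM per peak in fed (x axis) against fasted (y axis) AgRP nuclei, on logarithmic axes, with 2 libraries per state. Circles are the 36 peaks within 1 kb and triangles the 9 peaks within 1 to 5 kb of a start site, and red marks the called peaks. Most circles lie just below the diagonal, and the triangles upstream of Atg13 and Uvrag lie far above it.

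Between leptin-treated and fasted nuclei 0 of the 36 start-site peaks were called by edgeR or DESeq2, against 0.264% higher and 0.0744% lower of all start-site peaks (2.41% and 0.669% of all peaks). The median was −0.03, against −0.04 for all start-site peaks. At an unadjusted p under 0.05, 1 peak was lower, that of Uvrag (−0.27, interval −0.51 to −0.03, adjusted p = 0.264). Of all 14790 start-site peaks, 288 were higher and 270 lower at that unadjusted p.

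Peaks of IRF3 lay within 1 kb of the start of 19 of the 34 genes (55.9%), against 34.9% of 12584 tested genes and 37.1% of the 11781 with an ATAC peak at their start. The list holds 30387 peaks from 1 sample, so no test was made. For each gene the peak nearest to a start was taken. The highest total signal among the members was at Uvrag (6989), then Wipi1 (6087) and Ulk1 (4111). By maximum signal Uvrag (52) was also the highest, but Gabarapl2 (43) and Atg3 (37) came next, with Wipi1 at 34 and Ulk1 at 22. Peaks were also present at the starts of Optn, Tfeb, Wipi2, Nbr1 and Atg3, and their total signal ran from 1097 at Wipi2 to 2630 at Atg3.

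The start-site sequences of these 6 genes are given because they hold the peaks and motifs described. They run from 250 bases before to 50 after a RefSeq start (GRCm38.p6), on the strand of the gene, and capitals mark motifs found by search. The Uvrag window (chr7:99141095-99141394, minus strand) lay whole in an ATAC peak and for 231 bases in the IRF3 peak. That of Wipi2 (chr5:142629334-142629633, plus strand) had 300 and 178 bases in these peaks, that of Tfeb (chr17:47736787-47737086, plus strand) 191 and 276, and that of Optn (chr2:5064068-5064367, minus strand) 300 and 300. In the Nbr1 window (chr11:101552404-101552703, plus strand) capitals mark a STAT motif and then an IRF motif, and 300 bases lay in each peak. In the Atg3 window (chr16:45158579-45158878, plus strand) they mark 2 E-boxes, and 300 and 154 bases lay in the ATAC and IRF3 peaks.
Uvrag: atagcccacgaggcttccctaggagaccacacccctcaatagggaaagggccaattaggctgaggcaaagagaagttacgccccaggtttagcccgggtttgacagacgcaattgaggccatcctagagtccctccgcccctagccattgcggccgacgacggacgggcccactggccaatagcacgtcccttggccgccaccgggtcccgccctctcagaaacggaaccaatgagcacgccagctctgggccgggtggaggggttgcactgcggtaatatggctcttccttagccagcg
Wipi2: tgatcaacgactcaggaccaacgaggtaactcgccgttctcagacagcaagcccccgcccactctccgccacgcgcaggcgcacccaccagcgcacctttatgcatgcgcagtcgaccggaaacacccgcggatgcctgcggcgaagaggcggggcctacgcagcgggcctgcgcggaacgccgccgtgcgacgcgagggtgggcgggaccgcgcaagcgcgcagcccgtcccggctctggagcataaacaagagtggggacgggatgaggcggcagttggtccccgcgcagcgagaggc
Tfeb: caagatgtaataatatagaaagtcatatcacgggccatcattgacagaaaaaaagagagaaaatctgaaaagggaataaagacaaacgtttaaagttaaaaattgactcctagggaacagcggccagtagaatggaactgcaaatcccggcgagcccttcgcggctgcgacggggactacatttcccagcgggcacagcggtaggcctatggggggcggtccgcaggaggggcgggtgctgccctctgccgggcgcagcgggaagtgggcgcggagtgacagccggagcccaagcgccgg
Optn: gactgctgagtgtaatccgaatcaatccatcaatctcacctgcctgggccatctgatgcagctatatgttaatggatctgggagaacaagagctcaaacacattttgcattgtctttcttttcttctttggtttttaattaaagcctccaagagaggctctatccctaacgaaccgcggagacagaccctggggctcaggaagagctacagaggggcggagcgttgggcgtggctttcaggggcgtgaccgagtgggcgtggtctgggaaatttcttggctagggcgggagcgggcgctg
Nbr1: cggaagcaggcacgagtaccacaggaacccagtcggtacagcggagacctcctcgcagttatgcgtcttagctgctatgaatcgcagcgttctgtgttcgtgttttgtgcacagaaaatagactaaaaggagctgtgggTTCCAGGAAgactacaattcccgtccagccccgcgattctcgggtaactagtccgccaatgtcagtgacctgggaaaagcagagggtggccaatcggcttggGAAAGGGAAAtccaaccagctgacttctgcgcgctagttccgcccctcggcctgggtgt
Atg3: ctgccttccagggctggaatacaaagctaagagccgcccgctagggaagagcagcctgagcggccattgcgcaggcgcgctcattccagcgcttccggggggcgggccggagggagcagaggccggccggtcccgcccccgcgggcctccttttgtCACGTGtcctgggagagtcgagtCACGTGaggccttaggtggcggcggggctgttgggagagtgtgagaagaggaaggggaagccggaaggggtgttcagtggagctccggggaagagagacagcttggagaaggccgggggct

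Of the 36 listed genes 30 had such a window. The E-box CACGTG, the core of sites bound by TFEB among other factors, was present in those of Atg3, Atg5, Atg7 and Atg14 (13.3%, against 8.09% of 27025 genes), with the 2 copies in Atg3 at 94 and 71 bases before the start. The Atg7 window (chr6:114670846-114671145) held 0 bases of the start-site ATAC peaks. The ATAC peak at the GENCODE M21 start of Atg7 was elsewhere, at chr6:114642721-114643561. The FoxO motif TGTTTAC was in 0 windows, against 4.05% of genes. The STAT motif TTCNNNGAA was in those of Wipi1, Gabarap, Gabarapl1 and Nbr1 (13.3% against 9.55%), and the IRF motif, a pair of GAAA runs spaced by 2 bases, in that of Nbr1 (3.33% against 3.99%). Both strands were searched. The windows had a median GC content of 61.8%, against 53.3% over all genes. A match of letters is not a bound site, and Uvrag, with the highest IRF3 signal of the members, held none of the 4 motifs in its window.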

How the data were processed

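TRAP RNA was sequenced from 17 libraries, and ATAC-seq came from 6 libraries. Gene counts were deposited by the authors, who per the labels and methods removed ribosomal RNA, made libraries with a kit that does not keep strand, aligned reads with HISAT2 to mm10 and counted them with featureCounts (Subread) on an annotation modified to reduce overlaps. ATAC counts per peak were deposited by the authors after Bowtie2, MACS2 and bedtools, and the IRF3 peaks with their signal were deposited by the authors from SEACR. The submitters' processing notes name these tools without versions. Columns of other samples numbered 0.

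The 36 genes and the lists were chosen with earlier results of these data known. Counts were scaled by TMM and tested by edgeR's quasi-likelihood test (edgeR 4.0.16, R 4.3.3) with Benjamini-Hochberg adjustment over all genes with a mean of at least 1 CPM in the libraries compared (13401, 13412 and 13435 genes), and DESeq2 1.42.0 was an alternative. AgRP libraries were fitted together, POMC libraries together, and all 17 together for comparisons between cell types, each with cell type and state as groups. P-values are two-sided, intervals are 95%, and a change was called at an adjusted p under 0.05 and a log2 change over 0.5. Figures were drawn with matplotlib 3.10.9 in Python 3.11.15. The self-test on simulated counts was run before the fits.

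All 36 genes were to be accounted for, with values in every library for those called, with or without the replicate block, and for the ATG8 family, and with called genes of each list, at most 3 in each direction. Per-library values of Uvrag, Wipi2, Ulk1, Ulk2, Tfeb, Atg4c, Pik3c3 and Tax1bp1 and the peaks 1 to 5 kb from a start were added after their values were seen. ATAC peaks were counted within 1000 bases, or 5000 in an alternative, of GENCODE M21 starts. Of the 31854 symbols 22361 matched that annotation.

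Same-numbered RNA libraries deviated together. The correlation of their deviations from the group means was 0.536 to 0.814 over 10 pairs in AgRP and 0.733 to 0.770 over 6 comparisons in POMC libraries. With 2 POMC libraries per state the deviations mirror each other. Pairs of either number therefore give the same correlation, and the 6 are not all distinct. The labels do not say what the number marks. Replicates are pools of animals, so p-values measure the spread between pools. Alternatives were scaling, the low-count filter, DESeq2, no minimum fold, single cell types or states, each library left out, the replicate block and, chosen after seeing the data, leaving out the set-apart libraries. For AgRP against POMC neurons the block joined same-numbered libraries of both cell types. For the fasting and leptin effects between cell types it was set within each cell type.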

Additional observations from a re-analysis of the deposited data

Results flagged for a closer look

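In 4 of the 68 groups of 4 AgRP libraries examined (34 genes in fasted and in leptin-treated mice) a single library lay far from the other 3 by Dixon's criterion, which chance alone gives in about 1 in 20 groups. Atg16l1, part of the complex that attaches ATG8 proteins to lipid, was at 41.7 CPM in fasted library 4 and at 55.1 to 56.0 CPM in the others. Tax1bp1 was at 119.6 CPM in fasted library 4 and at 161 to 168 CPM in the others. Optn was at 27.8 CPM in leptin library 4 and at 33.0 to 33.3 CPM in the others. Atg2b was at 179 CPM in leptin library 3 and at 192 to 194 CPM in the others. The libraries numbered 4 are those with the high Slc1a2 share, whose part in these values was not tested.

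With the replicate block, the fasting effect differed between AgRP and POMC neurons for 3 genes by the interaction test. The difference, AgRP minus POMC, was −0.35 for Ulk1 (adjusted p = 0.0196), 0.39 for Uvrag (adjusted p = 0.0282) and 0.46 for Map1lc3a (adjusted p = 0.0135). Without the block none of the 3 passed.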

How the results depend on the processing

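The number of members called was 0 in each comparison of RNA and stayed 0 in every alternative except these. With no minimum fold it was 2 for fasted against fed in AgRP neurons and 9 for AgRP against POMC neurons, and with the replicate block it was 1 for AgRP against POMC neurons. For ATAC peaks near the start, fasted against fed, it was 2, and 1 with library-size scaling, 4 within 5 kb, and 0 to 3 when single libraries were left out. In AgRP against POMC neurons the sign turned for Rb1cc1 (−0.017, leptin libraries only) and Atg10 (−0.037, fasted libraries only), and the cause was not tested.

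The block and pairing changed the calls over all genes from 521 to 930 for fasted against fed, from 245 to 390 for leptin against fasted, from 735 to 1148 for leptin against fed, from 22 to 836 for the fasting effect between cell types and from 11 to 102 for the leptin effect. In POMC neurons the block gave 3, 8 and 44 calls and DESeq2 3, 10 and 7, against 0. ATAC libraries of the same number correlated by −0.00228 to 0.165. With 2 libraries per state this cannot show whether they share more than a number. The block there gave 3 calls near starts (Atg7 added, −0.73) and changed no other call of these peaks.

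Library-size scaling lowered the calls over all genes for fasted against fed to 238, and leaving out single libraries gave 276 to 707. For leptin against fed the alternatives gave 329 to 1191 (single libraries left out, 420 to 868) and for leptin against fasted 146 to 390. AgRP against POMC neurons had 1741 calls, with 292 in the fed, 1001 in the fasted and 637 in the leptin-treated libraries alone and 4771 with no minimum fold. The fasting effect between cell types had 22, with 6 under library-size scaling, 165 by DESeq2 and 0 to 29 with single libraries left out. The leptin effect had 11, with 39 by DESeq2 and 0 to 6 with single libraries left out.

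The log2 difference of Uvrag between fasted and fed ran from 0.34 to 0.44 over 17 alternatives and its adjusted p rose above 0.05 in 4. For Wipi2 it ran from 0.30 to 0.44 and this happened in 13. For AgRP against POMC, members with an adjusted p under 0.05 numbered 9, and 3 to 11 with single libraries left out. The 2 libraries per state in POMC neurons and ATAC limit what can be seen there, and Tfeb, at 1.53 to 3.55 CPM, had the widest interval between fasted and fed POMC neurons.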
